A study of Coturnix japonica with 54 samples.

Results

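The fatty acid binding protein genes of the quail hypothalamus were followed through a simulated year of day lengths. The 5 genes described are FABP3, FABP5, FABP6, FABP7 and FABP9, chosen by name from 19916 genes of a deposited table of expression values in CPM (read counts scaled to 1000000 per library). They were chosen with their course over the groups in that table already known. Their levels and slopes there are therefore given as descriptions with standard errors. Where their calls in that table are counted, the counts are no evidence for the members.

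The samples were mediobasal hypothalamus, the brain region that reads day length and governs the reproductive axis, from 54 male Japanese quail (Coturnix japonica), with 6 birds in each of 9 groups. The birds passed through 9 photoperiod steps of 2 weeks each, and those sampled when a step ended were picked by body mass in a pseudo-random way. In order, the groups were 16La (16 h of light), 14La (14 h), 12La (12 h), 10La (10 h), 8L (8 h), 10Lv (10 h), 12Lv (12 h), 14Lv (14 h) and 16Lv (16 h), the remaining hours of each day being dark. The letter a was read as the declining, autumn-like arm and v as the rising, spring-like arm. The 4 day lengths of 10, 12, 14 and 16 h were thus each met once on the way down and once on the way up. All birds began in the 16 h photoperiod, and no group was held at a constant day length. Step number therefore cannot be told apart from the age of the birds, from their time in the study or from the order of collection.

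Fatty acid binding proteins are small cytosolic carriers that fold into a barrel around a long-chain fatty acid or a related lipid and ferry it between membranes, enzymes and nuclear receptors. The members are named for the mammalian tissue in which each was first studied. In mammalian brain FABP7, the brain type, marks radial glia and astrocytes, FABP5, the epidermal type, is found in neurons and glia, and FABP3, the heart type, is found in neurons. FABP6, the ileal type, carries bile acids in the mammalian intestine, and FABP9 is the testis type of mammals.

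The libraries held 251236 to 1894182 recovered reads each in the CPM table (median 938182), with 1 library under 400000 reads in each group, which was replicate 3 in 7 of the 9 groups. The columns of 16Lv replicates 3 and 6 were alike to within sampling noise, at a chi-square per gene of 0.954, where the next closest of the 135 pairs inside a group had 6.25. Their mean was used as 1 sample, so n was 5 in 16Lv and 53 libraries entered in all. A second deposited table of estimated counts was far shallower, at 4834 to 156500 counts per library. Nothing in the labels says how the birds of 1 group were housed, so the spread between samples is that between these libraries. In tissue RNA, fewer cells of a type and less RNA per cell cannot be told apart.

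All 5 members passed the filter on low values, set at 10 CPM reached by 6 or more libraries, as did 8268 genes in all. FABP5 averaged 112 ± 21.0 CPM over all libraries, FABP7 96.99 ± 26.8, FABP3 50.1 ± 11.9, FABP9 21.0 ± 13.9 and FABP6 14.1 ± 10.3 (SD, n = 53). These levels are shares of reads that were not divided by transcript length, so they give no order of molecules between the genes. How reads that matched more than 1 family member were counted is not given in the sources used here, and the split of reads between such similar genes is uncertain to that extent.

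The testis-type gene FABP9 was the member whose level followed the order of the steps. Its group means in step order were 37.5 ± 13.7 CPM in 16La, 34.5 ± 22.9 in 14La, 30.3 ± 5.82 in 12La, 20.2 ± 5.58 in 10La, 19.2 ± 4.49 in 8L, 16.0 ± 5.09 in 10Lv, 12.0 ± 3.30 in 12Lv, 11.3 ± 4.62 in 14Lv and 5.94 ± 6.54 in 16Lv (SD, n = 6, with n = 5 in 16Lv). Each of these means was lower than that of the step before, and on the log2 scale used for the fits 7 of the 8 steps were downward. The level was already lower while days shortened and was lower still while they lengthened again, so that the 2 groups at 16 h stood at opposite ends of the order. Every neighbouring pair of groups in that order overlapped bird by bird, and only the difference of 10.0 CPM between 12La and 10La was larger than the larger of the 2 SDs.

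The values of single birds show where the groups at the ends of the cycle met. The 16Lv samples had 3.78, 0, 17.2 and 3.89 CPM and the averaged pair 4.87, whereas the 16La birds had 57.5, 43.8, 34.2, 15.9, 39.9 and 33.6. The 2 groups overlapped through a single bird each, 16Lv replicate 4 at 17.2 CPM and 16La replicate 4 at 15.9. The 14La group was split, with 2 birds at 66.1 and 60.6 CPM and the other 4 between 14.4 and 27.4. Without 16Lv replicate 4 the 16Lv mean was 3.14 ± 2.15 CPM (SD, n = 4). These levels rest on few reads, 31 over the 16Lv libraries and 204 over the 16La libraries. The 16Lv library at 0 held 778200 reads, and a count of 0 there allows up to 3.86 CPM, a limit of 3 counts that covers counting error only.

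**Figure D1:**
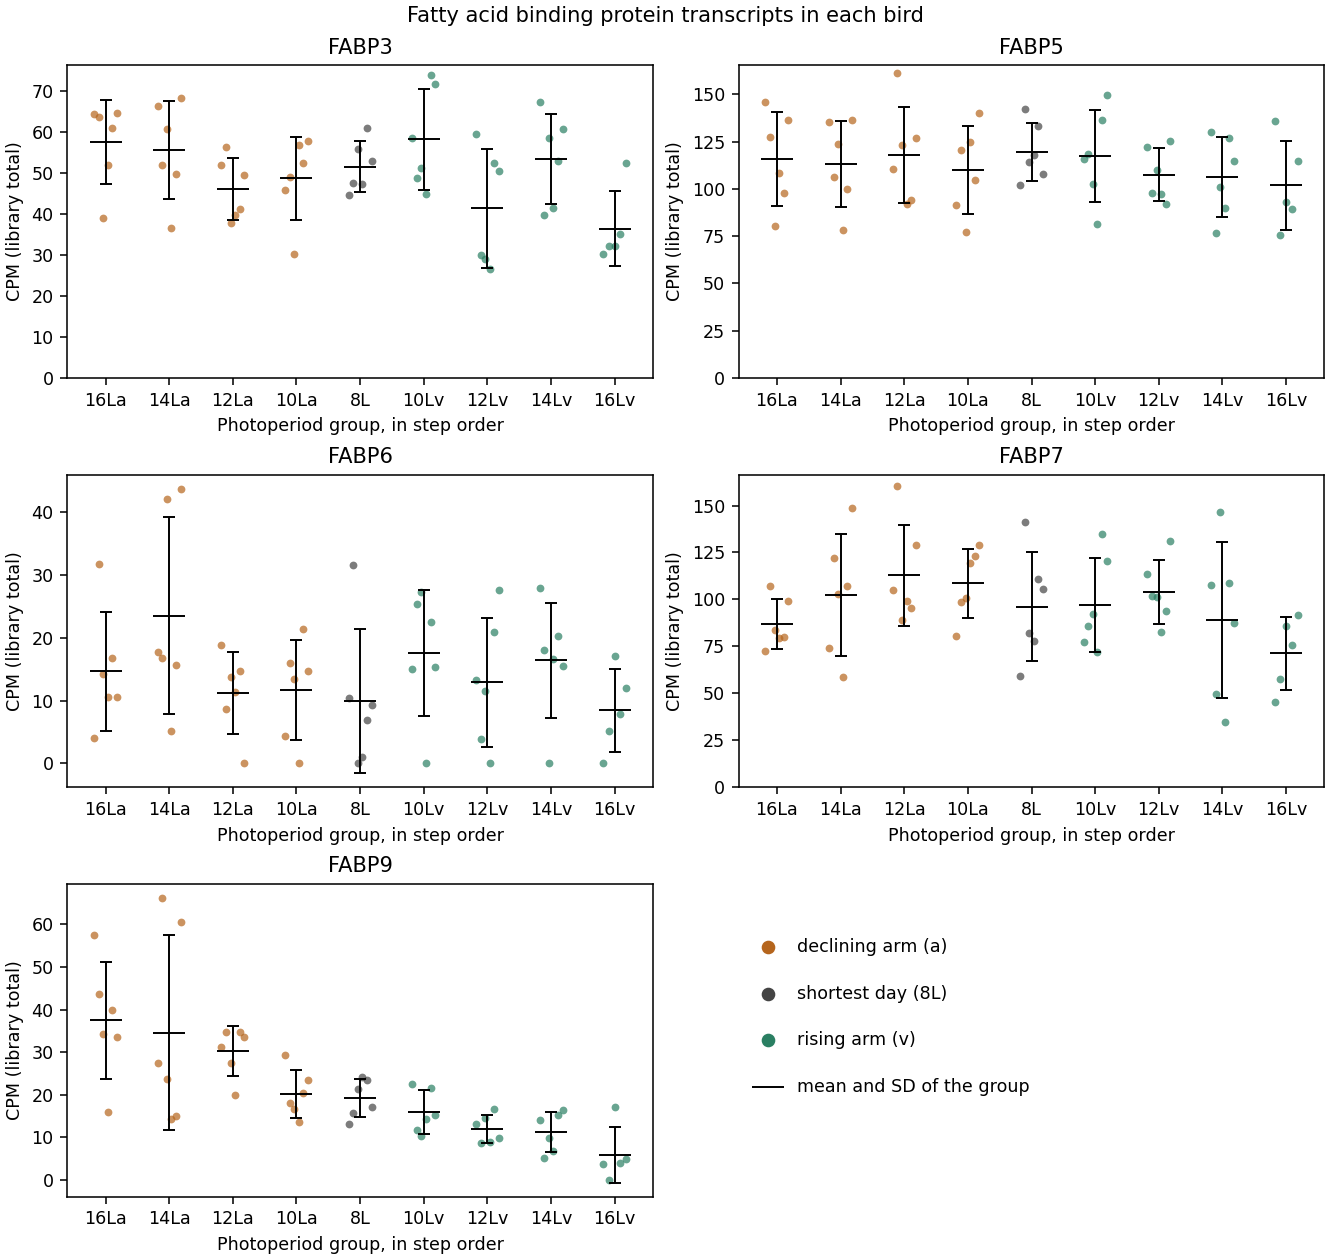
Level of each member in every library (points, CPM of the library total, linear axes with a scale of their own per gene) by photoperiod group in step order, with the mean and SD of each group as black marks. FABP9 runs from a mean of 37.5 CPM in 16La down to 5.94 in 16Lv, while the group means of FABP5 stay between 101.9 and 119.6 CPM; an SD bar that passes below 0 reflects spread, not a measured value.

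Matched day lengths set the rising arm against the declining arm of the cycle. At 12 h of light FABP9 had 8.72 to 16.6 CPM in 12Lv (median 11.5), against 19.8 to 34.8 in 12La (median 32.4). All 6 birds of 12Lv lay below all 6 of 12La, as was true of 0.133% of the genes tested. At 14 h the range was 5.26 to 16.4 CPM in 14Lv (median 11.9), against 14.4 to 66.1 in 14La (median 25.6), and the groups overlapped. At 10 h, the pair of groups closest in time, FABP9 had 10.3 to 22.6 CPM in 10Lv (median 14.9), against 13.5 to 29.4 in 10La (median 19.2). Most birds of those 2 groups shared 1 range. No other member separated its 2 arms at any of the 4 day lengths. Among all genes tested the share that did so, in either direction, was 0.194% at 10 h, 0.302% at 12 h, 0.266% at 14 h and 0.351% at 16 h.

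On the log2 scale of the fit, log2 of CPM plus 1 after scaling between libraries, the FABP9 difference was more negative for pairs of groups that lay further apart in time, a trend that was not itself tested. It was −0.39 (SE 0.39) for 10Lv minus 10La, −1.27 (SE 0.39) for 12Lv minus 12La, −1.37 (SE 0.39) for 14Lv minus 14La and −2.90 (SE 0.40) for 16Lv minus 16La. The last is a 7.45-fold lower level in 16Lv on that scale. The 10 h difference was about the size of its standard error, and the 14 h difference scarcely exceeded the 12 h one. Split at the turning point, 8L minus 16La was −0.85 (SE 0.39) and 16Lv minus 8L was −2.04 (SE 0.40).

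**Figure D2:**
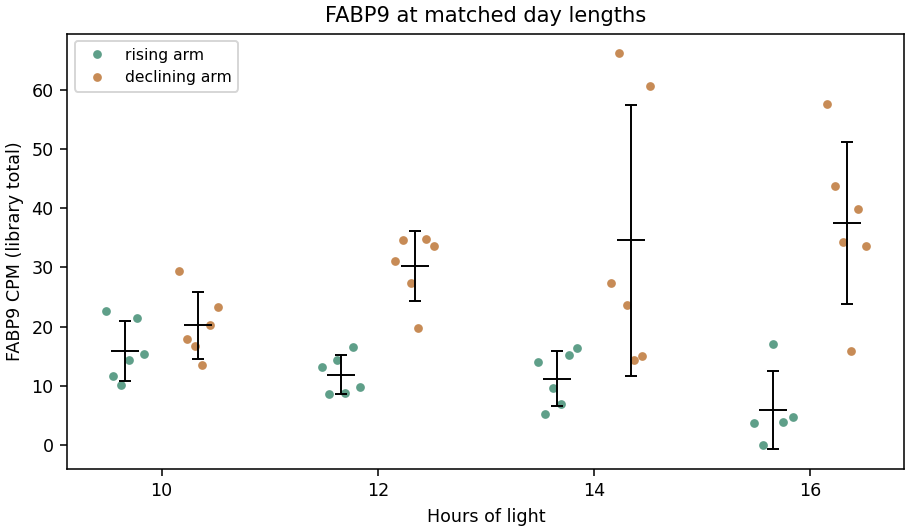
FABP9 in every library (points, CPM of the library total) at the 4 day lengths met in both arms, with the rising arm to the left of the declining arm and the mean and SD of each group in black. The rising-arm means are 16.0, 12.0, 11.3 and 5.94 CPM at 10, 12, 14 and 16 h, each under the declining-arm means of 20.2, 30.3, 34.5 and 37.5 CPM.

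Because the day lengths were symmetrical, the group means could be split into a slope on step and a slope on hours of light. For FABP9 the slope on step was −0.31 log2 units per step (SE 0.036), and the slope on hours of light was −0.058 log2 units per hour (SE 0.035). The slope on hours turned to 0.078 when 16Lv was left out and to −0.16 when 16La was left out. Step accounted for 89.4% of the variance among its 9 group means and hours of light for 3.25%, beside medians of 7.98% and 7.61% over all genes tested. Only 3 of the 8268 genes had a steeper negative slope on step. Within single arms the FABP9 slope on hours was −0.26 log2 units per hour (SE 0.064) in the rising arm and 0.12 (SE 0.061) in the declining arm. Hours and step change together within 1 arm and cannot be told apart there. Both slopes stand for lower levels at later steps.

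Of the 5 members, 1 passed limma's adjusted p of 0.05 for the slope on step, FABP9, beside 2 of all 8268 genes (0.0242%). The other was TSPAN2, which encodes a tetraspanin of myelinating oligodendrocytes, with a slope of −0.16 (SE 0.026). FABP9 was also 1 of the 2 genes past that threshold for 16Lv minus 16La (0.0242%), with MAPK8IP1, a scaffold protein of the JNK kinase pathway. For hours of light no member and none of the 8268 genes passed in limma (0% called), where 411 genes had an unadjusted p under 0.05. On the recovered reads 1 gene was called for hours by edgeR, 1 by limma-voom and 7 by DESeq2, none of them a member. Since FABP9 was chosen for this course, these counts are no independent evidence of it. The 16Lv minus 16La call was lost when only those 2 groups were fitted, at a difference of −2.88 (SE 0.61).

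**Figure D3:**
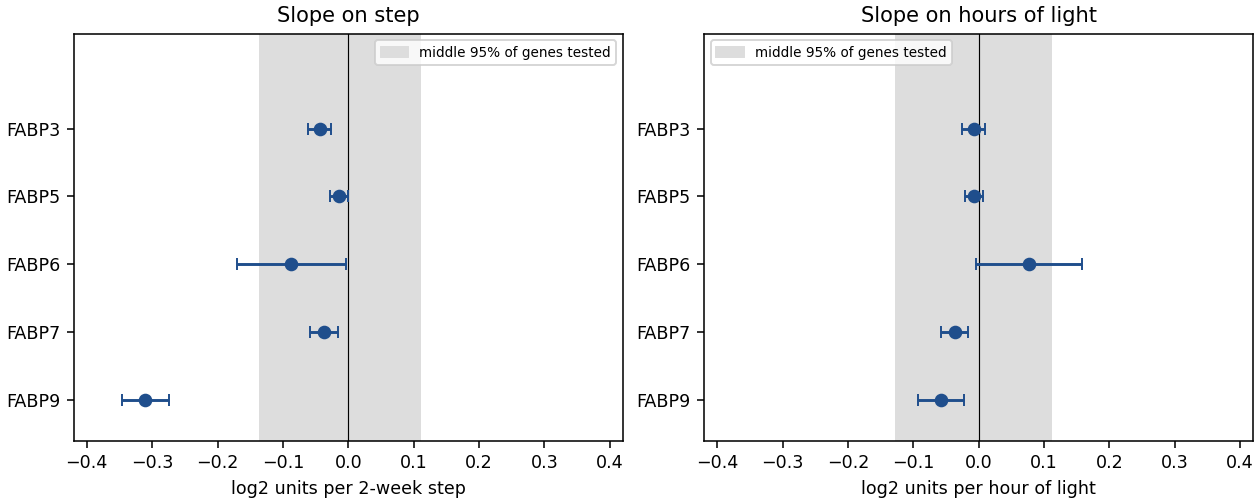
Slopes of the 5 members on step (left, log2 units per 2-week step) and on hours of light (right, log2 units per hour), as points with SE bars, over the middle 95% of the slopes of all 8268 genes tested in grey. FABP9 at −0.31 per step lies outside the grey band, which starts at −0.13, and all 5 points lie inside the band for hours of light.

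The same FABP9 values were set against the other members of the same libraries, as a ratio of read numbers that needs no scaling between libraries. The ratio restates values already known when FABP9 was chosen and is no evidence for its course. Each of the other members also had its lowest group mean in CPM in 16Lv, though on the log2 scale FABP6 was lower in 8L. FABP9 reads came to 5.95 ± 7.17% of those of FABP5 in 16Lv and 32.8 ± 11.0% in 16La (SD, n = 5 and 6). The 16Lv libraries ranged from 0 to 18.4% and the 16La libraries from 14.6 to 42.6%, so 1 range ran into the other. Set against FABP7, FABP9 came to 7.75 ± 7.47% in 16Lv and 44.2 ± 19.95% in 16La. Set against FABP3 it came to 17.3 ± 20.8% in 16Lv and 65.7 ± 22.2% in 16La. Without 16Lv replicate 4 the 16Lv means were 2.84 ± 2.03% of FABP5, 4.69 ± 3.46% of FABP7 and 8.23 ± 5.64% of FABP3 (SD, n = 4).

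FABP7, the glial brain-type carrier, followed neither the step order nor its reverse. Its group means in step order were 87.01, 102.4, 113, 109, 96.2, 97.1, 104, 89.1 and 71.3 CPM, highest in 12La and lowest in 16Lv. The other group at 16 h of light, 16La, was next to lowest. The 16Lv samples had 45.4, 57.8, 85.8 and 75.9 CPM and the averaged pair 91.8, against 72.4, 107, 83.8, 79.4, 79.9 and 99.2 in the 16La birds. Those groups overlapped over most of their range. The slope was −0.037 log2 units per step (SE 0.021) and −0.036 per hour of light (SE 0.021). Libraries of 1 group could differ widely, and in 14Lv they ran from 34.6 to 146 CPM (median 97.6). The lowest was replicate 4, with 25 reads of FABP7 in 722232, and the highest replicate 3, with 45 in 307059. These were the shallowest libraries of 14Lv, and the part of depth in that spread was not tested.

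Markers of the cells that carry FABP7 in mammals did not pass the test in any of these comparisons. Of 18 tanycyte and astrocyte markers, 17 were in the table and 12 were tested. They included the glial filament gene GFAP and the thyroid hormone enzyme gene DIO2. None was called for step, for hours or for 16Lv minus 16La, where 3, 2 and 1 had an unadjusted p under 0.05 in limma. DIO2 had a slope of 0.22 log2 units per hour of light (SE 0.059). It averaged 14.6 CPM in 16La, 4.5 in 8L and 13.2 in 16Lv. The marker SLC1A2 had 0.065 per hour (SE 0.019), and AQP4 had −0.081 per step (SE 0.026). Slopes on hours were positive in 6 markers and negative in 6, and those on step in 10 and 2. The summed level of the markers ranged from 1115 to 2086 CPM in 16Lv and from 1298 to 1623 CPM in 16La. The tanycyte transcription factor gene RAX was at 0 in most libraries, which limits how well the tanycyte layer can be followed in these data.

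FABP5, the epidermal-type carrier, was the steadiest member. Its 9 group means lay between 101.9 CPM in 16Lv and 119.6 CPM in 8L, and its libraries between 75.8 and 161 CPM. In 16Lv it ranged from 75.8 to 136 CPM (median 93.3), against 80.3 to 146 CPM (median 118) in 16La, almost the same interval. The coefficient of variation over 53 libraries was 18.7%, and 98.996% of the genes tested had a larger spread within groups. FABP5 also had the most recovered reads of the members, 5532 against 709 for FABP6. The part of read number in the spread was not tested. The slope was −0.014 log2 units per step (SE 0.014) and −0.0075 per hour of light (SE 0.013), each at about its standard error or under it.

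FABP3, the heart-type carrier, had its lowest group mean in CPM in the last group, 16Lv, as had every other member. On the log2 scale of the fit this did not hold for FABP6, whose 16Lv minus 8L was 0.16 (SE 0.93). The share of all genes with their lowest group mean in 16Lv is not given here. The 16Lv samples had 30.2, 32.1, 32.2 and 35.04 CPM and the averaged pair 52.3, against 64.5, 63.6, 38.96, 51.9, 60.9 and 64.6 in the 16La birds. The averaged pair lay within the 16La range and the other 4 samples lay below it. The difference 16Lv minus 16La was −0.58 (SE 0.20), and the slope on step was −0.044 log2 units per step (SE 0.018). That slope came to −0.018 when 16Lv was left out, which was over 1.5 times smaller, so most of it rested on the last group. The group means did not follow the steps, since 10Lv was highest at 58.1 ± 12.2 CPM and 12Lv next to lowest at 41.3 ± 14.4 CPM (SD, n = 6 each). In 12Lv 3 birds lay between 26.5 and 30.05 CPM and 3 between 50.3 and 59.5.

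FABP3 and FABP5 varied together from library to library. Over the 53 libraries Pearson's r of their log2 levels was 0.55 and Spearman's rho 0.62, and within groups r was 0.61. FABP3 with FABP7 gave r = 0.35, and FABP5 with FABP7 gave 0.36. The correlations are descriptions, since all values of a library share its depth and composition: FABP3 had r = 0.44 with the number of reads and 0.30 with the summed level of cytosolic ribosomal protein genes, and FABP5 had 0.30 and 0.27. Within groups these were 0.51 and 0.44 for FABP3, and 0.28 and 0.32 for FABP5. The part of these in the correlation was not tested. FABP9 had r = 0.14 with the number of reads and 0.16 with the ribosomal protein level, and within groups 0.16 and 0.39.

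**Figure D4:**
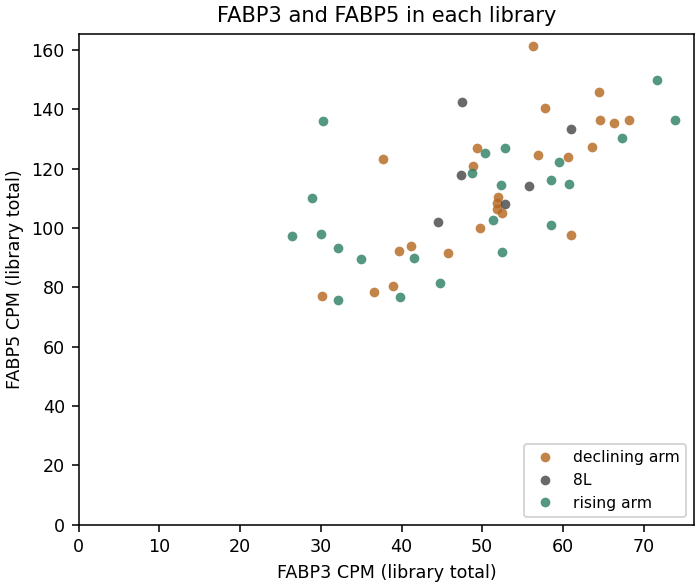
FABP5 against FABP3 in each of the 53 libraries (CPM of the library total on both linear axes), with the declining arm, 8L and the rising arm in separate colours. Libraries with more FABP3 mostly had more FABP5 (r = 0.55 on the log2 scale), and the colours lie over each other except at the left edge, where 7 of the 8 libraries under 36 CPM of FABP3 are of the rising arm and 1 is of the declining arm.

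FABP6, the ileal-type bile acid carrier, was the most variable member. Its coefficient of variation was 72.7%, its libraries ran from 0 to 43.7 CPM, and 7 of 53 libraries held no read of it. Of those 7, 3 had under 400000 reads. They lay in 7 different groups, never more than 1 in a group. They were replicate 3 in 8L and 14Lv, replicate 1 in 16Lv, replicate 4 in 10La, 10Lv and 12Lv, and replicate 6 in 12La. In 10La, 10Lv and 12Lv replicate 4 was the next shallowest library after the 1 under 400000 reads. The recovered reads of FABP6 were whole multiples of 4 in 46 of the 47 deposited libraries that held any (with 16Lv replicates 3 and 6 apart), as in 0.629% of the genes tested (multiples of 4 in at least 95% of libraries with reads), whereas those of the other members were not. If 4 of them stand for 1 sequenced read, its 709 recovered reads come to 178, with a median of 3 per library. A count of 0 in the 7 libraries then allowed up to 13.5 to 45.4 CPM, over the overall mean of 14.1 CPM in 6 of the 7, so an absence of FABP6 was not detectable there.

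The group means of FABP6 followed neither the order of the steps nor that of day length. In step order they were 14.7, 23.5, 11.2, 11.7, 9.91, 17.6, 12.9, 16.4 and 8.42 CPM. In 14La 2 birds had 42.2 and 43.7 CPM and the other 4 had 5.22 to 17.7. In 16Lv the range was 0 to 17.2 CPM (median 7.79), against 3.97 to 31.8 CPM (median 12.4) in 16La, with most of the range shared. The slope on step was −0.087 log2 units per step (SE 0.083), and turned to 0.019 without the 9 libraries under 400000 reads. The slope on hours of light was 0.076 log2 units per hour (SE 0.081). No neighbouring groups in the order of FABP6, FABP7, FABP5 or FABP3 differed by more than the larger of their SDs.

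The table of estimated counts was not used to choose the members and covers the same birds. It listed FABP3, FABP6 and FABP7 under those names. FABP3 had 4 counts in 4 libraries, too few for any comparison, and no member passed the minimum count of that table's test, which 826 genes did (0% called for step in edgeR, where 71 had an unadjusted p under 0.05, limma-voom called 1 and DESeq2 called 0). That table was rich in pituitary hormone transcripts, with 51567 counts of POMC and 36000 of PRL, against 1354 and 39 reads in the CPM table. It was poor in neuronal ones, with 32 counts of NPY and 6185 of MAP2, against 8387 and 1583373 reads. The tables thus differed in content as well as depth, and levels are not directly comparable between them. Its depth also moved with the steps, at a median total of 27128 counts in 16Lv and 75567 in 16La. The part of content or depth in the values below was not tested.

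FABP6 counts in that table lay mainly in the first 2 groups. The first of its 3 annotated transcripts had 16 counts in 16La, 19 in 14La, 6 in 12La, 1 in 10La, 2 in 8L, 0 in 10Lv, 8 in 12Lv, 0 in 14Lv and 3 in 16Lv. All 6 birds of 14La had at least 1 count, and all 3 counts of 16Lv came from 1 bird. As CPM of the pooled group this was 18.5 in 16Lv (95% exact Poisson interval 3.82 to 54.1) and 36.7 in 16La (21.0 to 59.5), intervals of counting error only that overlapped. In 14Lv, without a count, the upper bound of that interval was 15.8 CPM, against a lower bound of 27.3 in 14La. The CPM table did not show that gap as a separation, with 0 to 27.97 CPM in 14Lv against 5.22 to 43.7 in 14La.

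Whether FABP6 passed the test on step in that table depended on how transcripts were combined. With no minimum count and the transcripts summed, edgeR gave a slope of −0.42 log2 units per step (SE 0.10, adjusted p = 0.00765), with fewer counts at later steps, and 1.4% of the 16442 genes were called. The 3 transcripts held the same counts in 47 of 54 libraries, a number that includes libraries without any count. Only 22 libraries held counts of FABP6. Over all libraries the transcripts had 55, 50 and 53 counts. Summing may thus count the same reads up to 3 times, which was not tested. With the highest transcript in place of the sum the slope was −0.32 (SE 0.084) and did not pass (edgeR adjusted p = 0.114, with 0.103% of genes called).

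FABP7 counts in that table were 6 in 16La, 12 in 14La, 22 in 12La, 13 in 10La, 11 in 8L, 8 in 10Lv, 3 in 12Lv, 4 in 14Lv and 3 in 16Lv. As CPM of the pooled group the level was 18.5 in 16Lv (95% exact Poisson interval 3.82 to 54.1) and 13.7 in 16La (5.04 to 29.9). It was highest at 50.01 (31.3 to 75.7) in 12La, which was also the highest group of FABP7 in the CPM table. The intervals of 10Lv, 8L and 10La, at 47.8, 44.4 and 40.7, overlapped that of 12La. The level was lowest at 13.2 (2.71 to 38.5) in 12Lv, which ranked 3 of 9 in the CPM table at 104 CPM. The edgeR slope with no minimum count was −0.15 log2 units per step (SE 0.10, adjusted p = 0.722) and −0.15 per hour of light (SE 0.094, adjusted p = 0.970, with 0.347% of genes called). Neither passed.

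**Figure D5:**
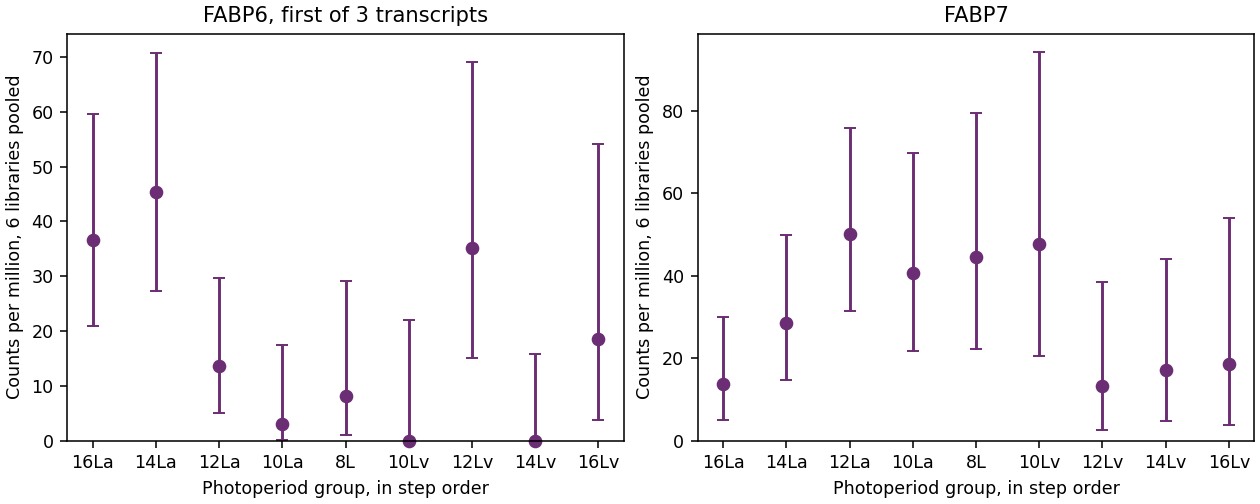
FABP6 (left, first of its 3 transcripts) and FABP7 (right) in the table of estimated counts, as CPM of the 6 pooled libraries of each group in step order, with 95% exact Poisson intervals that cover counting error only. FABP6 is highest in 14La at 45.3 and without counts in 10Lv and 14Lv, and FABP7 is highest in 12La at 50.01.

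The genes most like each member over the 53 libraries of the CPM table were named by the highest Pearson r of the log2 level. For FABP9 they were EYA3 (r = 0.54), CEP78 (0.55) and SIRT4 (0.56). EYA3 encodes a transcriptional coactivator known in birds and mammals for its response to long days, CEP78 a centrosomal protein, and SIRT4 a mitochondrial sirtuin. EYA3 averaged 41.1 ± 43.2 CPM in 16Lv and 65.4 ± 31.4 CPM in 16La (SD, n = 5 and 6), with a slope of −0.23 log2 units per step (SE 0.089, limma adjusted p = 0.818), and did not pass.

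FABP5 was most like NDUFS8 (r = 0.61), NDUFB1 (0.60) and NDUFAB1 (0.60), which all encode subunits of respiratory complex I. The median r with FABP5 over the genes searched was 0.073. Over the 9 group means r was 0.67 for NDUFS8, 0.74 for NDUFB1 and 0.054 for NDUFAB1. FABP3 was most like POLR2D (r = 0.61), TMEM115 and PSMD3, FABP7 most like SIDT2 (r = 0.56), FOXJ3 and MLLT11, and FABP6 most like TRMT61A (r = 0.58), FAM117B and METTL21A. None of these 15 genes passed for the slope on step, and no member was among the genes most like another, since members were left out of the search.

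The wider machinery around the carriers was read from 8 lists with 124 genes of lipid handling, of which 66 could be tested. None was called in limma for step, for hours of light or for 16Lv minus 16La, at smallest adjusted p-values of 0.689, 0.941 and 0.810. At an unadjusted p under 0.05 there were 4, 5 and 5 genes, and edgeR, limma-voom and DESeq2 called none of the 66 either. The median slope on step was −0.0058 log2 units over these genes and −0.0067 over all genes tested, and 35 of the 66 slopes were negative.

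By role, none of the lists stood out by its count of calls, which was 0 in each. Of genes for fatty acid uptake and activation 7 of 10 had a negative slope on step, among them SLC27A1, a fatty acid transporter (−0.073, SE 0.024, limma adjusted p = 0.689), at 19.9 ± 11.7 CPM in 16Lv and 29.7 ± 14.3 in 16La (SD, n = 5 and 6). Negative slopes were found in 8 of 13 genes of fatty acid synthesis, elongation and desaturation, in 7 of 12 of mitochondrial beta oxidation, in 4 of 10 of peroxisomal oxidation and in 1 of 6 of lipid storage and lipolysis. They were found in 2 of 6 genes on the list of lipid-sensing nuclear receptors and their partners. That list includes the coactivator gene PPARGC1A, whose own slope was positive (0.0085, SE 0.062). Such carriers hand their ligands to these receptors. None of the 2 related binding proteins tested, RBP5 and CRABP1, had a negative slope. Other genes picked by rank of p for step had slopes of either sign. Positive were ACOX2 (0.11, SE 0.073), NR1H3 (0.092, SE 0.077), RXRA (0.062, SE 0.037), HADH (0.048, SE 0.025), DGAT2 (0.028, SE 0.061) and SCP2 (0.021, SE 0.017). Negative were ACSL6 (−0.12, SE 0.051), ACADS (−0.090, SE 0.069), SCD (−0.076, SE 0.039), NAPEPLD (−0.074, SE 0.061), ABHD12 (−0.063, SE 0.031), PLIN2 (−0.050, SE 0.057) and ELOVL5 (−0.043, SE 0.020). The 4 genes with an unadjusted limma p under 0.05 for step, SLC27A1, ACSL6, ELOVL5 and ABHD12, all had negative slopes.

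Of 11 endocannabinoid genes, whose lipid signals are also bound by FABP5 and FABP7 in mammals, 9 were in the table and 7 were tested. Of those 7, 6 had a negative slope on step and all 7 were below 0 for 16Lv minus 16La. Their median was −0.63 against −0.039 over all genes tested, the largest in size of the 8 lists in that comparison. FAAH and TRPV1 were too low to be tested. FAAH averaged 2.26 CPM in 16Lv and 0.685 in 16La, and TRPV1 0.452 and 0.984. None passed the test. ABHD12, a lipase of that pathway, had 39.3 ± 13.0 CPM in 16Lv and 71.1 ± 47.0 CPM in 16La (SD, n = 5 and 6), with a spread in 16La larger than the difference.

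Markers of other cells that the dissection could hold were read beside the FABP9 course. Of 9 pituitary markers 8 were in the table, with PRL, GH, TSHB, FSHB, POU1F1 and TBX19 at 0 in most libraries. Their summed level, mostly CGA and POMC, had a slope of 0.13 log2 units per step, opposite in sign to that of FABP9, and ranged from 98.3 to 263 CPM in 16Lv and from 54.9 to 179 CPM in 16La. Of 12 oligodendrocyte markers 10 were in the table, with MOG and CSPG4 at 0 in most libraries. Their slope was −0.051 log2 units per step, with 5080 to 10424 CPM in 16Lv and 6261 to 11528 CPM in 16La. The part of either in the FABP9 course was not tested. No marker of the 9 lists was called in limma for step, hours or 16Lv minus 16La. On the recovered reads POMC, a pituitary and hypothalamic hormone precursor gene, was called for hours of light by edgeR (slope −0.18 log2 units per hour, SE 0.032, adjusted p = 0.0137), by limma-voom and by DESeq2, against −0.16 (SE 0.035, adjusted p = 0.175) in limma. No other marker was called by these tools.

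In the RefSeq gene table of assembly Coturnix japonica 2.1, FABP3 lies on chromosome 23 next to ZCCHC17, FABP6 on chromosome 13 between CCNJL and PWWP2A, and FABP7 on chromosome 3 between SMPDL3A and PKIB. FABP5 and FABP9 did not match a symbol there, so their identity rests on the names in the CPM table. Of the neighbours, ZCCHC17 beside FABP3 had a slope on step of 0.0077 log2 units (SE 0.027, limma adjusted p = 0.983). PKIB beside FABP7 had a slope of −0.062 (SE 0.044, adjusted p = 0.901), and neither passed.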

How the data were processed

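RNA from single birds was sequenced as Oxford Nanopore direct cDNA of polyA RNA, per the labels' protocols. Salmon 0.14.2, minimap2 2.17 and edgeR 3.24.3 appear in the submitters' processing notes without a role, and which genome build was used is not given in the sources used here. The authors deposited a CPM table scaled to 1000000 per library (19930 names, of which 14 resembling dates were left out) and a table of estimated counts for 40282 transcripts of 16448 genes. CPM values were whole multiples of the most common value, taken as 1 read, within 0.1 read for 99.83 to 100% of genes per library, which gave back the authors' read counts. These can hold 1 sequenced read several times: for 5.61% of the genes tested, FABP6 among them, they were multiples of 2 in at least 95% of libraries with reads. For the CPM table, limma 3.58.1 (limma-trend) was fitted to log2(TMM-scaled CPM + 1) of the 53 libraries, with a mean for each of the 9 groups and no covariates. Slopes and differences were contrasts of those means. For the estimated counts, summed per gene and rounded, edgeR 4.0.16 quasi-likelihood tests with TMM and filterByExpr (minimum count 10) were run. Alternatives used DESeq2 1.42.0 and limma-voom. Calls required an adjusted p (Benjamini-Hochberg, over all genes tested) under 0.05. Scripts were tested on simulated data. The members, gene lists and tests were chosen with earlier results of these data known. Named were all members, the 3 symbols most like each, called genes, and some of the genes chosen by rank of p from the pathway lists. PPARGC1A, FAAH, TRPV1, the markers and the chromosomal neighbours were named outside that ranking. Limits for a count of 0 and intervals cover counting error only.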

Additional observations from a re-analysis of the deposited data

Results flagged for a closer look

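In 45 sets of values, 1 per member and group, 3 held a sample far from the others of its group by Dixon's criterion, which flags about 1 in 20 such sets by chance. FABP9 in 16Lv replicate 4 stood at 17.16 CPM, with the other 4 samples between 0 and 4.872 CPM. FABP3 in the averaged 16Lv replicates 3 and 6 stood at 52.31 CPM, with the other 4 samples between 30.25 and 35.04 CPM. FABP6 in 8L replicate 2 stood at 31.66 CPM, with the other 5 birds between 0 and 10.47 CPM.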

How the results depend on the processing

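FABP9 was chosen with its course over the steps in these values known, so its values here show what the processing moves and do not support the course. It lost its call for 16Lv minus 16La in the fit of only those 2 groups, an alternative added with earlier results known. Its slope on step was −0.35 with a pseudocount of 0.25, −0.24 without 16Lv and between −0.34 and −0.27 when 1 replicate was left out; its 16Lv minus 16La difference was −3.42 with that pseudocount, −2.46 by edgeR, −2.49 by DESeq2 and between −3.40 (without 16Lv replicate 4) and −2.34 (without 16Lv replicate 2). Its slope on hours of light was 0.078 without 16Lv and −0.16 without 16La, omissions that leave hours and step no longer balanced. The slope of FABP3 on step was −0.018 without 16Lv and its slope on hours 0.020 without 16Lv and −0.029 without 16La. That of FABP7 on step was −0.010 without 16Lv and −0.064 without 16La. That of FABP6 on step was −0.00308 by limma-voom, 0.012 without the 6 shallowest libraries and 0.019 without the 9 under 400000 reads, a limit chosen after the depths were seen.

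Counts of called genes moved more. Among CPM values the 0 for hours became 7 by DESeq2 and 1 by edgeR, by limma-voom or without the 9 shallow libraries, and 0 to 1 when 1 replicate was left out. The 2 for 16Lv minus 16La became 1 by edgeR or without the 6 or the 9 shallow libraries, 22 with no filter, 0 in the fit of 2 groups, and 1 to 3 when 1 replicate was left out. In the table of estimated counts 0 for step became 1 by limma-voom, 231 with no minimum count, 17 with no minimum and the highest transcript, and 0 to 2 when 1 replicate was left out. The 5 for hours became 57, 13 and 4 to 8, and the 0 for 16Lv minus 16La became 32 and 2. The causes were not tested. FABP6 in that table had −0.32 with the highest transcript. The ribosomal protein level as a covariate, chosen after the data were seen, moved no member by more than its SE. No paired or blocked analysis was run, since the replicate numbers are in accession order and no label pairs birds across groups. The library under 400000 reads was nevertheless replicate 3 in 7 of 9 groups. Sorted by the numbers in the sample titles, the shallow library of 16Lv, its replicate 1, took the place that replicate 3 held in those 7 groups. Replicate 4 was the next shallowest in 14La, 12La, 10La, 10Lv, 12Lv and 14Lv. It held the lowest FABP9 value of 14La, 12La and 10La, but not that of 10Lv, 12Lv or 14Lv. Of FABP7 it held the lowest value of 14La, 10Lv, 12Lv and 14Lv, and of FABP6 that of 14La, 10La, 10Lv and 12Lv. Of FABP5 it held that of 14La, 12La and 10Lv, and of FABP3 that of 14La, 10Lv and 12Lv. In the rest of these groups another replicate was lowest. Whether libraries of like position in their group share a block was not tested, and the SEs take no account of it. Depth limits FABP6 and FABP9 most, at 709 recovered reads (178 if 4 stand for 1 sequenced read) and 1060 over all libraries.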

Other observations

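3 further names in the CPM table hold the letters FABP. FABP4, the adipocyte type of the family, had 25 reads in 21 of 53 libraries and averaged 0.481 ± 0.683 CPM (SD, n = 53). FABP1, the liver type, had 1 read in all. EXFABP, an extracellular lipocalin of birds that shares the name but not the family, averaged 5.63 ± 7.32 CPM and had its highest value, 48.4 CPM, in a bird of 14Lv.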
